A study of Mus musculus with 8 samples.

Results

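Levels of 6 genes linked to chloride transport and the sodium-potassium pump were examined in sensory neurons: the cation-chloride cotransporters Slc12a2 and Slc12a5, the anoctamins Ano1 and Ano3, and the sodium-potassium pump beta subunits Atp1b1 and Atp1b3. They were taken by symbol, not by a measured value, and are 6 of the 22609 gene symbols counted in each library. RNA was sequenced from neurons of the dorsal root ganglia (DRG), which hold the cell bodies of the sensory nerves of trunk and limbs. These neurons had been labelled from hindpaw skin and thigh muscle on both sides with a fluorescent wheat germ agglutinin conjugate (WGA-488), which travels back along axons, and were isolated from lumbar ganglia by fluorescence-activated sorting. There were 4 libraries from naïve young adult C57BL/6J females in the estrous phase and 4 from naïve males of the same strain and age range, all injected with WGA-488 and otherwise untreated. Skin and muscle neurons are mixed in each library, and the labels name no animals. The methods of the study give each library the left and right ganglia of the same lumbar levels, as many as a mouse has there, and p-values measure the spread between these libraries.

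Sensory neurons differ from most adult central neurons in keeping a high chloride concentration inside the cell, so that opening a chloride channel tends to depolarise them. Slc12a2 encodes NKCC1, which carries chloride into the cell together with sodium and potassium, and Slc12a5 encodes KCC2, which carries chloride and potassium out. Ano1 encodes a calcium-activated chloride channel that is known in heat-sensitive nociceptors, and the related Ano3 protein is known in DRG neurons as a partner of a sodium-activated potassium channel. The sodium-potassium pump exports sodium and imports potassium and so drives NKCC1. Beta subunits such as those encoded by Atp1b1 and Atp1b3 are needed for the folding of the pump and its delivery to the membrane.

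The genes differed by orders of magnitude in level, and the sequences upstream of the gene with the highest level, Atp1b1, and of that with the lowest, Slc12a5, are shown to place those levels beside their promoters. Each is the 250 bases before a RefSeq start site in the GRCm38.p6 build: chr1:164458356-164458605 on the minus strand for Atp1b1, and chr2:164960596-164960845 and chr2:164967738-164967987 on the plus strand for the first and the second start of Slc12a5. Capitals mark matches, on either strand, to GGGCGG (the GC box), CCAAT (the CCAAT box), TATAAA (the TATA box) or TATATA.
Atp1b1: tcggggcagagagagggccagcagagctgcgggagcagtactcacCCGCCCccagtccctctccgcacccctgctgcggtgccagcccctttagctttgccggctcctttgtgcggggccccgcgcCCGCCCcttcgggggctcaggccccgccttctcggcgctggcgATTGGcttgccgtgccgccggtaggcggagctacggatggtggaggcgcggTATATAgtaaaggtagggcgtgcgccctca
Slc12a5, first start: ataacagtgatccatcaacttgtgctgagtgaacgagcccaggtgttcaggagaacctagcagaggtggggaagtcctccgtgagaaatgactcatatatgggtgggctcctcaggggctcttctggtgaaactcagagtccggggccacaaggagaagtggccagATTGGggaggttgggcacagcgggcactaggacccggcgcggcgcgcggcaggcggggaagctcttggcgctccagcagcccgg
Slc12a5, second start: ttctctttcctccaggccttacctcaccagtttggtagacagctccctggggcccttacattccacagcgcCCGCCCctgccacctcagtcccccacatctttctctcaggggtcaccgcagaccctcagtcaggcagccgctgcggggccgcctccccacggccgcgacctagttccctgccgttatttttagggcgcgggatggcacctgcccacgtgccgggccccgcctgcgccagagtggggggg
The Atp1b1 sequence held 2 GC boxes, 1 CCAAT box and 1 TATATA, the first start of Slc12a5 held 1 CCAAT box, and the second start held 1 GC box. None of the 3 sequences held TATAAA. Among the 32851 promoter sequences of the same length in the RefSeq table, 32.7% held a GC box, 33.8% a CCAAT box, 12.4% a TATA box and 5.25% TATATA. The G and C content was 70.4% for Atp1b1 and 61.2% and 67.2% for the starts of Slc12a5, against a median of 52.4% over the table. A match is a description of the letters and does not show that a factor binds there.

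Libraries held 4800071 to 7329597 gene reads, so that 3 reads, taken as the smallest detectable count, corresponded to 0.409 to 0.625 CPM (counts per 1000000 gene reads). Of the reads counted as in a gene, ambiguous or in no annotated feature, 57.8% to 60.5% lay in no feature. The 15 markers of sensory neurons all passed the expression filter. Of the 8 markers of endothelium and blood, only Pecam1 passed, with 6 to 16 reads. Among the others, Alas2 had 1 to 22 reads, and the hemoglobin genes Hba-a1 and Hbb-b1 had 0 reads in every library. The summed level of the 8 was 3.54 to 20.2 CPM in females, highest in female replicate 4, and 3.41 to 7.84 CPM in males. Markers of satellite glia and Schwann cells were present, with a summed level of 11823 to 15226 CPM in females and 5612 to 11406 CPM in males. Female replicate 4 stood apart from the other libraries. Its chi-square per degree of freedom against the other females was 31.7 to 48.2, while other pairs of libraries of one sex reached at most 12.7, and the main values that its removal changed are given with and without it. The labels name no sequencing batch, so no value could be recomputed within batches.

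To compare the genes with one another, levels were expressed as RPKM, which is CPM divided by the annotated exon length in kilobases. Both pump subunits were among the most abundant transcripts, Ano3 and Slc12a2 were at intermediate levels, Ano1 was low and Slc12a5 was near the limit of detection. Atp1b1 had 481 ± 34.1 RPKM (SD, n = 8), rank 80 of 21627 annotated symbols, and Atp1b3 had 360 ± 70.8 RPKM (SD, n = 8), rank 122. Ano3 followed with 17.3 ± 5.03 RPKM (SD, n = 8) and rank 3499. Slc12a2 had 5.47 ± 0.953 RPKM (SD, n = 8) and rank 6775. Leaving out female replicate 4, these levels were 18.9 ± 2.33 RPKM for Ano3 and 5.78 ± 0.434 RPKM for Slc12a2 (SD, n = 7). Ano1 had 1.33 ± 0.624 RPKM (SD, n = 8) and rank 10573. Slc12a5 had 0.0863 ± 0.0543 RPKM (SD, n = 8) and rank 14582.

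Neighbours in this order were separated to different degrees. Atp1b1 was above Atp1b3 in 7 of 8 libraries, with a within-library log2 ratio of 0.44 ± 0.36 (SD, n = 8), while their ranges over libraries overlapped. The lowest Atp1b3 level was 253 RPKM and the highest Ano3 level was 21.7 RPKM. Ano3 was above Slc12a2 within each of the 8 libraries, by 1.80 times in female replicate 4 and 2.89 to 3.64 times in the others, but their ranges over libraries overlapped since Ano3 was at 6.01 RPKM in female replicate 4. Without that library the lowest Ano3 level was 14.8 RPKM and the highest Slc12a2 level 6.41 RPKM. Slc12a2 and Ano1, and Ano1 and Slc12a5, had ranges that did not overlap.

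**Figure D1:**
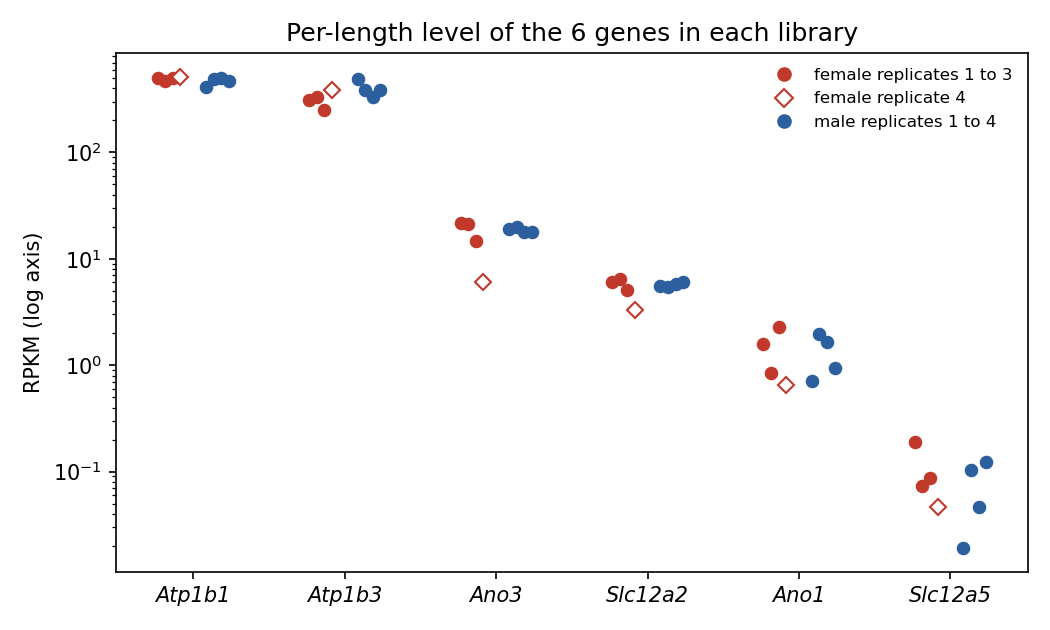
Per-length level (RPKM, log axis) of each of the 6 genes, with 1 point per library; females are red, males blue, and female replicate 4 is the open diamond. Atp1b1 and Atp1b3 sit between 253 and 516 RPKM, Slc12a5 at or below 0.192 RPKM, and female replicate 4 is the lowest library for Ano3, Slc12a2 and Ano1.

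The chloride importer and the chloride exporter were compared first. Slc12a2 (ENSMUSG00000024597, chromosome 18, 58038332 to 58106475, plus strand, 27 exon blocks; positions of genes are in build mm9) had 288, 241, 160 and 129 reads in female replicates 1 to 4 and 268, 239, 228 and 265 reads in male replicates 1 to 4. Scaled to depth these were 39.6, 41.8, 33.3 and 21.7 CPM in females and 36.6, 35.5, 37.6 and 39.2 CPM in males. The males and the first pair of female replicates lay close together, and female replicate 4 was the lowest of all. The mean was 34.1 ± 9.01 CPM for female and 37.2 ± 1.58 CPM for male libraries (SD, n = 4 each). The fitted log2 fold change, female over male, was -0.14 ± 0.19 (SE, 95% confidence interval -0.56 to 0.28), and its edgeR adjusted p-value was 0.870. With female replicate 4 left out, the female mean was 38.2 ± 4.40 CPM (SD, n = 3) and the log2 fold change of Slc12a2 was 0.03 ± 0.10 (SE), with an interval from -0.20 to 0.26.

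Slc12a5 (ENSMUSG00000017740, chromosome 2, 164786316 to 164825228, plus strand, 27 exon blocks) had 10, 3, 3 and 2 reads in female replicates 1 to 4 and 1, 5, 2 and 6 reads in male replicates 1 to 4. In 5 of the 8 libraries it was at or under 3 reads, and the sexes overlapped, at 0.337 to 1.37 CPM in females and 0.136 to 0.887 CPM in males. It did not pass the expression filter, and at this depth no difference between the sexes was detectable and no fold change is given. Its exons share 188 bases with Gm11459, a processed transcript on the same strand, so part of these few reads could belong to either gene. Both promoter sequences shown above thus precede a gene with 18 reads in the 4 females together and 14 in the 4 males together.

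Within each library the per-length level of Slc12a2 exceeded that of Slc12a5 by a wide margin. The ratio was 31.7, 88.4, 58.7 and 71.0 in female replicates 1 to 4 and 295, 52.6, 126 and 48.6 in male replicates 1 to 4. The most extreme values came from the libraries with the most and the fewest Slc12a5 reads, female replicate 1 and male replicate 1. With so few exporter reads the ratio has a wide counting error in every library. Slc12a2 was not the only SLC12 cotransporter present. It made up 17.9% to 21.9% of the summed RPKM of the 9 SLC12 genes in females and 21.8% to 25.8% in males, ranges that met at their ends.

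Of the other 7 SLC12 genes, 4 passed the filter and none had an unadjusted p-value under 0.05. The highest were Slc12a9, with 6.24 ± 0.577 RPKM (SD, n = 8), and Slc12a4, which encodes the potassium-chloride exporter KCC1, with 5.92 ± 1.65 RPKM (SD, n = 8). Slc12a4 shares 361 exon bases with Gm16156 on the other strand. The kinase Wnk1 and its target kinase Stk39 (SPAK), which phosphorylate these cotransporters and thereby activate NKCC1 and inhibit the exporters, had 9.24 ± 1.73 RPKM and 7.37 ± 0.497 RPKM (SD, n = 8). All 5 kinases in the counts passed the filter and none passed the unadjusted threshold, with log2 fold changes of 0.16 ± 0.16 (SE) for Wnk1 and 0.04 ± 0.12 (SE) for Stk39.

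With all 8 libraries, Ano1 and Ano3 had the largest coefficients of variation of the 5 tested genes, 46.9% and 29.2%. Ano3 (ENSMUSG00000074968, chromosome 2, 110495358 to 110791080, minus strand, 30 exon blocks) had 1145, 885, 516 and 259 reads in female replicates 1 to 4 and 1009, 968, 781 and 883 reads in male replicates 1 to 4. Its level was 157, 154, 107 and 43.6 CPM in the females and 138, 144, 129 and 131 CPM in the males. The males were tightly grouped, the first pair of female replicates lay above every male, and the last pair lay below every male.

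The mean level of Ano3 was 116 ± 53.0 CPM for female and 135 ± 6.83 CPM for male libraries (SD, n = 4 each). Its log2 fold change came to -0.24 ± 0.31 (SE, 95% confidence interval -0.93 to 0.45) and its edgeR adjusted p-value to 0.863. Without female replicate 4 the female mean was 139 ± 27.8 CPM (SD, n = 3) and the log2 fold change of Ano3 was 0.03 ± 0.12 (SE), so the negative sign rested on that library. The coefficient of variation of Ano3 over libraries was 12.3% without it, below the 21.2% of Atp1b3 in the same 7 libraries. The exons of Ano3 share 61 bases with Muc15 on the other strand, and it is not stated whether the counting used strand.

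Ano3 and Slc12a2 are long transcripts, and long transcripts as a class were low in female replicate 4. Relative to the median library, Ano3 deviated by -1.60 and Slc12a2 by -0.75 (log2 of CPM) in that library. The 1238 tested genes of like exon length, 6410 to 8360 bases, had a median deviation of -0.50 there, against -0.03 to 0.08 in the other 7 libraries. Genes in the length class of Atp1b3, 1533 to 2141 bases, had a median deviation of 0.29 in female replicate 4, and Atp1b3 itself deviated by 0.11. The part of exon length in these values was not tested.

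**Figure D2:**
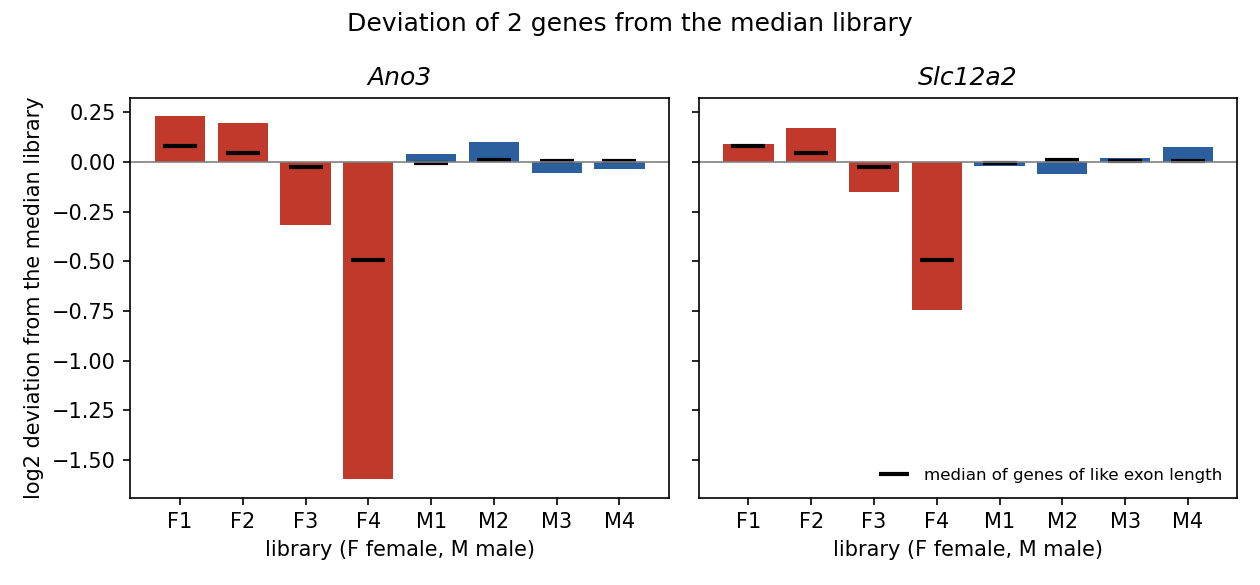
Log2 deviation of CPM from the median library for Ano3 and Slc12a2 in each library (bars; red females F1 to F4, blue males M1 to M4), with the median deviation of the 1238 genes of like exon length as a black dash. In female replicate 4 Ano3 stands at -1.60 and Slc12a2 at -0.75, both below the class median of -0.50, and in the other libraries the class median lies near 0.

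Ano1 (ENSMUSG00000031075, chromosome 7, 151774454 to 151937879, minus strand, 28 exon blocks) had 60, 25, 57 and 20 reads in female replicates 1 to 4 and 27, 68, 52 and 33 reads in male replicates 1 to 4. In each sex one pair of libraries was high and the other pair low, and the ranges, 3.37 to 11.9 CPM in females and 3.68 to 10.1 CPM in males, nearly coincided. Ano1 had a fitted log2 fold change of 0.01 ± 0.43 (SE) and an adjusted edgeR p-value of 0.997. Its 95% confidence interval, -0.94 to 0.96, was wide enough to hold nearly a doubling in either direction. The log2 fold change of Ano1 was 0.24 ± 0.40 (SE) without female replicate 4, with an interval from -0.65 to 1.13. The per-length level of Ano3 was 6.46 to 25.2 times that of Ano1 in females and 10.2 to 26.6 times in males.

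Ano3 made up 17.5% to 25.0% of the summed RPKM of the 10 anoctamins in 7 libraries and 9.56% in female replicate 4, and Ano1 made up 0.897% to 2.72% over all 8. The highest of the others were Ano10, with 38.0 ± 3.33 RPKM (SD, n = 8), and Ano6, known as a calcium-activated lipid scramblase, with 18.0 ± 5.18 RPKM (SD, n = 8). Ano6 was at 5.47 RPKM in female replicate 4 and at 17.9 to 21.9 RPKM in the others, and without that library the means were 36.9 ± 1.56 RPKM for Ano10 and 19.8 ± 1.22 RPKM for Ano6 (SD, n = 7). Ano9 had 0 reads in all libraries, and Ano2, which encodes the other classical calcium-activated chloride channel of the family, did not pass the filter. Ano8 was the anoctamin with the smallest unadjusted p-value. It had 19, 43, 37 and 45 reads in females and 24, 17, 27 and 17 in males, with log2 fold change 0.95 ± 0.36 (SE), an unadjusted p-value of 0.0242 and an edgeR adjusted p-value of 0.651. Female replicate 1 lay within the male range, and the gene shares 76 exon bases with Dda1 on the other strand.

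The pump subunits carried most reads of the 6 genes. Atp1b1 (ENSMUSG00000026576, chromosome 1, 166367398 to 166388486, minus strand, 6 exon blocks) had 8831, 6482, 5834 and 7421 reads in female replicates 1 to 4 and 7266, 8009, 7332 and 7647 in male replicates 1 to 4. After scaling these were 1214, 1125, 1215 and 1250 CPM in females and 991, 1190, 1211 and 1131 CPM in males. Libraries lay close together apart from male replicate 1, the lowest. The mean was 1201 ± 53.5 CPM for female and 1131 ± 98.8 CPM for male libraries (SD, n = 4 each). The log2 fold change of Atp1b1 was 0.07 ± 0.10 (SE, 95% confidence interval -0.15 to 0.28), with an edgeR adjusted p-value of 0.878. Its coefficient of variation over the 8 libraries, 7.09%, was the lowest of the 6 genes.

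Atp1b3 (ENSMUSG00000032412, chromosome 9, 96233099 to 96264766, minus strand, 7 exon blocks) had 4269, 3576, 2274 and 4297 reads in female replicates 1 to 4 and 6776, 4832, 3784 and 4935 reads in male replicates 1 to 4. Its level was 587, 621, 474 and 724 CPM in females and 924, 718, 625 and 730 CPM in males. Female replicate 4 lay among the males and above male replicates 2 and 3, so the sexes overlapped, while the other 3 females lay below every male. The mean was 601 ± 103 CPM for female and 749 ± 126 CPM for male libraries (SD, n = 4 each).

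The log2 fold change of Atp1b3 was -0.34 ± 0.15 (SE), with an unadjusted p-value of 0.0487 and an edgeR adjusted p-value of 0.698, which did not pass. Without female replicate 4 it was -0.44 ± 0.13 (SE), with an unadjusted p-value of 0.00811 and an edgeR adjusted p-value of 0.317. The unadjusted call was lost without any 1 of female replicates 1, 2 and 3 and male replicates 1, 2 and 4. Without male replicate 1, the library with the highest Atp1b3 level, the log2 fold change was -0.21 ± 0.15 (SE) and the unadjusted p-value 0.178.

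Marker levels of other cells and neuron classes also differed between the libraries at the extremes of Atp1b3. Male replicate 1, highest in Atp1b3, had the lowest mean level of the 10 large myelinated neuron markers, 4.82 on the log2(CPM + 1) scale against 5.76 to 6.76 in the other libraries, the highest mean of the 10 small nociceptor markers, 9.96 against 9.14 to 9.68, and the lowest of the 15 glial markers, 6.07 against 6.75 to 7.25. Female replicate 3, lowest in Atp1b3, had the highest mean of the large neuron markers. Female replicate 4 went the other way, with the highest Atp1b3 level among females, the lowest mean of the small nociceptor markers, 9.14, and a large neuron mean of 6.43, second to female replicate 3. By summed level, however, its small nociceptor markers were at 12150 CPM, near the top of the female range, so the 2 measures differ for this library. The summed level of the large neuron markers was 1454 to 2858 CPM in females and 731 to 1587 CPM in males, that of the nociceptor markers 10175 to 12151 CPM and 11681 to 15432 CPM, and no marker of either list was at 0 in all libraries. All 10 large neuron markers had positive log2 fold changes with a median of 0.61, and 9 of the 10 small nociceptor markers had negative ones with a median of -0.33. Of the 14 glial markers tested, 5 had an unadjusted p-value under 0.05, each higher in females, where 4.44% of all genes were called higher in females. Of the 10 fibroblast markers, 6 passed the filter and 4 of these were called higher in females, with a median log2 fold change of 0.71. Of the 10 macrophage markers, 4 passed and 3 of these were called higher in females, with a median of 1.54, while C1qb was at -0.14. The other 6 macrophage markers did not pass, so these counts cover only a part of that list. The summed level of the 10 fibroblast markers was 104 to 157 CPM in females and 46.0 to 89.9 CPM in males, and that of the 10 macrophage markers 9.76 to 30.4 CPM and 4.23 to 11.9 CPM. With the glial marker level as a covariate the log2 fold change of Atp1b3 was -0.08 ± 0.18 (SE) and its unadjusted p-value 0.672. The glial marker mean ranged from 6.99 to 7.25 in females and from 6.07 to 6.99 in males, with the lowest female just above the highest male, so the covariate and sex are related in that fit. The part of cell composition in the Atp1b3 values was not tested, and fewer cells of a type cannot be told apart from less RNA per cell in these libraries.

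Over the tested genes, 0 of 5 had an edgeR adjusted p-value under 0.05, where 0.0879% of all 12518 genes did. At an unadjusted p-value under 0.05, 1 of 5 was called, Atp1b3, higher in males, where 7.11% of all genes were called in either direction, 4.44% higher in females and 2.67% higher in males. Atp1b3 was again the 1 call among the 5 without female replicate 4, where 11.4% of all genes were called in either direction and 5.72% higher in males. DESeq2 called 0 of the 5 at both thresholds, where it called 0.383% of all genes by adjusted p-value and 7.42% by unadjusted p-value. Of the log2 fold changes, 2 were positive and 3 negative, with a median of -0.14 against 0.00 over all genes. Without female replicate 4, 4 were positive and 1 negative, with a median of 0.03. Every confidence interval with all 8 libraries lay within a doubling in either direction.

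**Figure D3:**
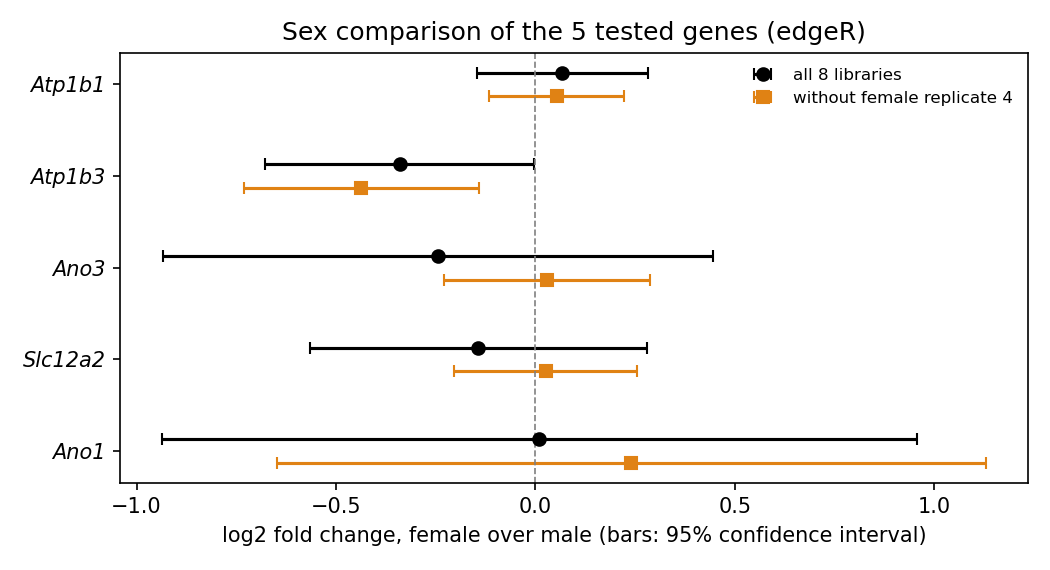
Log2 fold change, female over male, of the 5 tested genes from edgeR, with bars for the 95% confidence interval; black circles use all 8 libraries and orange squares leave out female replicate 4. Every interval crosses 0 except that of Atp1b3, which ends at -0.002 with all libraries and at -0.14 without female replicate 4, and the values of Ano3 and Slc12a2 move to 0.03 without that library.

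The balance between the pump's beta subunits was taken within each library, where scaling between libraries plays no part. The per-length ratio of Atp1b1 to Atp1b3 was 1.60, 1.40, 1.99 and 1.34 in female replicates 1 to 4 and 0.830, 1.28, 1.50 and 1.20 in male replicates 1 to 4. Atp1b3 exceeded Atp1b1 in male replicate 1 alone, and the ranges of the sexes overlapped. Atp1b1 made up 55.9% to 63.6% of the summed RPKM of the beta subunits in females and 44.8% to 58.2% in males. Atp1b2, a beta subunit known from glia, had 24.3 ± 7.33 RPKM (SD, n = 8). Its fitted log2 fold change was 0.45 ± 0.27 (SE) and its unadjusted p-value 0.120, and without female replicate 4 these were 0.58 ± 0.25 (SE) and 0.0465, with an edgeR adjusted p-value of 0.429. Atp1b4 had 0 reads in all libraries.

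**Figure D4:**
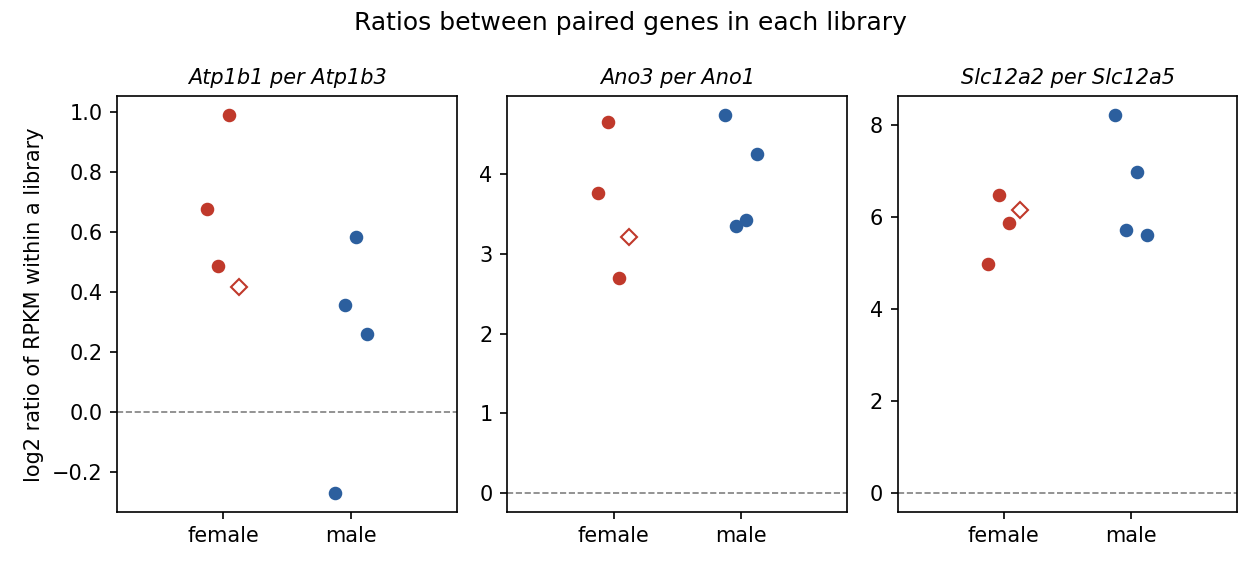
Log2 ratio of RPKM within each library for Atp1b1 to Atp1b3, Ano3 to Ano1 and Slc12a2 to Slc12a5, with 1 point per library (females red, female replicate 4 open, males blue) and a dashed line at equal levels. Males and females overlap in all 3 panels, and male replicate 1 is the only point below the line, for Atp1b1 to Atp1b3, at -0.27.

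FXYD proteins are small membrane proteins that bind the pump and adjust its activity, and 6 of their 7 genes passed the filter. Fxyd2, the gamma subunit known from small DRG neurons, had 1622 ± 259 RPKM (SD, n = 8), and Fxyd7, known from neurons, had 709 ± 151 RPKM (SD, n = 8), so both exceeded Atp1b1 and Atp1b3 in mean per-length level. Fxyd1, or phospholemman, had 62.6, 69.0, 58.2 and 79.6 RPKM in females and 19.4, 55.3, 55.0 and 42.6 RPKM in males. The lowest female, 58.2 RPKM, lay just above the highest male, 55.3 RPKM. The fitted log2 fold change of Fxyd1 was 0.63 ± 0.27 (SE), with unadjusted p-value 0.0426 and an edgeR adjusted p-value of 0.696. Male replicate 1, lowest in Fxyd1, was also lowest in the glial markers and in Atp1b2, and the part of glial RNA in these values was not tested.

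**Figure D5:**
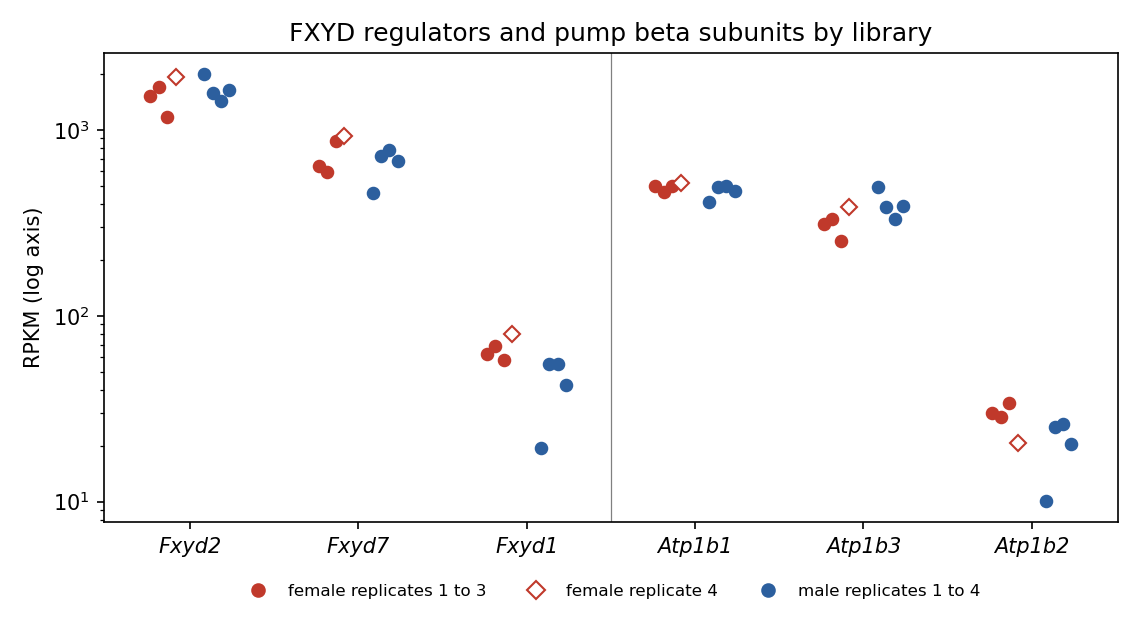
Per-length level (RPKM, log axis) of FXYD regulators and beta subunits of the sodium-potassium pump, with 1 point per library (females red, female replicate 4 open, males blue). Fxyd2 lies at or above 1181 RPKM in every library, Atp1b1 and Atp1b3 lie between 253 and 516 RPKM, and male replicate 1 is the lowest library for Fxyd1 and Atp1b2.

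Of 64 other genes listed for these families, 63 were in the counts, 44 passed the filter and 0 had an edgeR adjusted p-value under 0.05. At an unadjusted p-value under 0.05, 3 of the 44 (6.82%) were called, Ano8, Ttyh2 and Fxyd1, where 7.11% of all genes were called in either direction. Each of the 3 was higher in females, where 4.44% of all genes were called, and 0 were called higher in males, where 2.67% of all genes were. Ttyh2, a member of the tweety family, had 195, 152, 150 and 192 reads in females and 111, 172, 120 and 161 in males. The lowest female, 26.4 CPM, lay just above the highest male, 25.5 CPM. The log2 fold change of Ttyh2 came to 0.45 ± 0.18 (SE) and its edgeR adjusted p-value to 0.657. Leaving out 1 library at a time, the unadjusted call was kept in 5 of 8 fits for Ttyh2 (lost without female replicate 3, male replicate 1 or male replicate 3), in 3 of 8 for Fxyd1 (kept without male replicate 1, 2 or 3) and in 3 of 8 for Ano8 (kept without female replicate 1, male replicate 1 or male replicate 3). Without female replicate 4 the unadjusted p-value was 0.0447 for Ttyh2, 0.0781 for Fxyd1 and 0.0579 for Ano8. Without female replicate 4, 5 of the 45 family genes then tested were called at the unadjusted threshold, where 11.4% of all genes were.

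Among the other chloride channels, Clcn4-2, an endosomal chloride-proton exchanger, had the highest level with 64.8 ± 3.91 RPKM (SD, n = 8), followed by Lrrc8a, the obligatory subunit of volume-regulated anion channels, with 25.9 ± 3.08 RPKM (SD, n = 8). Both were highest in female replicate 4, and without it had 63.6 ± 2.12 RPKM and 24.9 ± 1.24 RPKM (SD, n = 7). Lrrc8a shares 1344 exon bases with other genes. Cftr, the chloride channel of epithelia, had 0 reads in all libraries. The highest of the listed SLC4 genes were Slc4a11, with 16.2 ± 2.13 RPKM (SD, n = 8), and Slc4a2, which encodes a chloride-bicarbonate exchanger, with 10.9 ± 2.81 RPKM (SD, n = 8). The 4 genes given here with a level above 0 lay above the mean of Slc12a2 and below those of Atp1b1 and Atp1b3.

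Genes whose levels followed those of the 5 tested genes over the 8 libraries were listed by Pearson correlation of log2(CPM + 1) with scaled library sizes, as a description of the same libraries and without a test. Slc12a2 was most like Zfp458 (r = 0.996) and Zeb2 (r = 0.995), and Ano3 was most like Katnal1 (r = 0.997) and Ablim3 (r = 0.996). Both profiles have their lowest value in female replicate 4, and r was above 0.9 with 1149 genes for Slc12a2 and 1375 genes for Ano3 out of 12517. Without female replicates 3 and 4 the r of Slc12a2 was 0.936 with Zfp458 and 0.969 with Zeb2, and that of Ano3 was 0.875 with Katnal1 and 0.935 with Ablim3. Ano1 was most like Pppde2 (r = 0.987) and Ehhadh (r = 0.985), and without female replicates 3 and 4 these were 0.986 and 0.979. Atp1b1 was most like Ppp1r14c (r = 0.984) and Bace2 (r = 0.970), which fell to 0.899 and 0.851 without male replicate 1 and female replicate 2, the libraries at its extremes. Atp1b3 was most like Lgals9 (r = 0.992), with the same rank order over the 8 libraries (rho = 1.00), and Adk (r = 0.984). Without male replicate 1 and female replicate 3, the libraries at its extremes, the r of Atp1b3 was 0.996 with Lgals9 and 0.905 with Adk. The genes with r above 0.9 numbered 25 for Ano1, 110 for Atp1b1 and 107 for Atp1b3.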

How the data were processed

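Per the labels, the authors used TopHat2 for alignment (mm9) and HTSeq for counting, and the deposited values are raw read counts for 22609 gene symbols and 5 summary lines, which were left out. The annotation release and strand option are not given in the sources used here. SMART-seq2 amplifies cDNA by PCR without molecular identifiers, so floors cover counting error only.

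Exon lengths and positions came from GENCODE M1 (mm9), which held 95.7% of the symbols. Sexes were compared in edgeR 4.0.16 by its quasi-likelihood test, with TMM factors, the default expression filter and Benjamini-Hochberg adjustment over 12518 genes. On simulated female and male libraries the test recovered 113 of 200 genes changed 2-fold (56.5%), beside 10 false calls among 12403 tested. Of 200 genes changed 4-fold it recovered 187 (93.5%), beside 13 false calls among 12388 tested. The simulated set held no outlying library such as female replicate 4 and no shift with exon length, so these shares may not hold for the real libraries. No 2 libraries of the same sex were duplicates (chi-square per degree of freedom at least 2.89).

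The 6 genes and all lists were chosen with earlier results of these data known. Named besides the 6 were listed genes with an unadjusted p-value under 0.05, the 2 highest of each list per length and the 2 genes most like each tested gene. Some genes that the rule names are not reported here. The beta subunits Atp1b2 and Atp1b4, Ano2, Ano9 and Cftr, and the markers Alas2, Pecam1 and C1qb, were named after their values were seen. Other fits used limma-voom (limma 3.58.1), DESeq2 1.42.0, other scaling and filters, a replicate block, the glial marker level as a covariate and leaving out each library. Python 3.11.15, pandas 2.3.3 and matplotlib 3.10.9 were used.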

Additional observations from a re-analysis of the deposited data

How the results depend on the processing

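With DESeq2, 48 genes passed the adjusted threshold in place of 11, with the replicate block 6 and with the glial covariate 5. The glial covariate left 144 female-higher and 151 male-higher genes at the unadjusted threshold, in place of 556 and 334. Of the 5 tested transporter and pump genes, 0 passed it under DESeq2 size factors, library size alone, DESeq2 and the glial covariate, in place of 1, where 7.17%, 7.33%, 7.42% and 2.36% of all genes did, in place of 7.11%. Of the family genes, 6 of 57 tested were called with no filter, 5 of 45 with the CPM filter, 6 of 44 with the replicate block and 1 of 44 with the glial covariate, in place of 3 of 44. Of all genes, 6.46%, 7.18%, 6.97% and 2.36% were called in these 4 fits, against 10.5%, 11.1%, 13.6% and 2.27% of the family genes. The log2 fold change of Ano1 turned to -0.048 with limma-voom, -0.018 with the replicate block and -0.41 with the glial covariate, and that of Atp1b1 to -0.042 with the glial covariate. The cause was not tested.

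Leaving out each library gave 7 to 84 genes past the adjusted threshold, 399 to 725 higher in females and 188 to 728 higher in males at the unadjusted one, 0 to 1 of the 5 genes and 1 to 6 of the family genes. The adjusted count was highest without female replicate 1. The log2 fold changes ranged from -0.26 to 0.026 for Slc12a2, -0.36 to 0.27 for Ano1, -0.42 to 0.030 for Ano3, 0.02 to 0.10 for Atp1b1 and -0.44 to -0.21 for Atp1b3. Over the 80 refits of single genes, 70 kept direction and call by adjusted p-value, 10 reversed, and the lowest adjusted p-value was 0.317.

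Libraries with the same number came from different mice, and the correlations of their deviations were 0.10, -0.12, 0.15 and 0.01, so the replicate block rests on numbers that do not pair the libraries. Levels with scaled library sizes and ratios with 0.5 read added moved by less than the spread between libraries. Depth limits Slc12a5, at 1 to 10 reads, and Ano1, at 20 to 68 reads.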
